A study of Mus musculus with 6 samples.

Results

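The Slc25 family comprises the mitochondrial solute carriers of the mouse. Its members here were all rows of the deposited gene count table that are annotated as protein coding and whose symbol starts with Slc25a, which gave 47 of 53800 genes. Uncoupling proteins and other relatives with different symbols were therefore not members. Sequencing of messenger RNA libraries measured transcripts in NCTC 1469, a wild-type line derived from mouse liver, and every library came from this 1 line. The simulated microgravity group held 3 libraries of cells kept for 6 days on a random positioning machine, which turns a culture so that gravity has no constant direction. The normal gravity group held 3 libraries of cells kept for 6 days without it. All 6 cultures grew in DMEM with 10% fetal bovine serum. The series title names melatonin. No label of the 6 libraries does, and the comparison here is simulated microgravity against normal gravity. Count columns carry the letters R and C, read here as random positioning machine and control, and every direction given below rests on that reading. Whether replicates are separate cultures is not said in the labels, so a p-value covers only how these libraries vary, and that variation may be technical.

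Most carriers of this family sit in the inner mitochondrial membrane, which is otherwise closed to charged metabolites. Each exchanges or carries a small set of solutes: ADP and ATP, phosphate, citrate and malate, amino acids, cofactors, acylcarnitines, iron or glutathione. In liver, such carriers link the matrix with fatty acid oxidation, gluconeogenesis, the urea cycle and the export of citrate for lipid synthesis.

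Libraries held 30474792 to 34318208 counts in simulated microgravity and 31406875 to 32797684 counts at normal gravity. The family took 0.287% to 0.291% of all counts in simulated microgravity libraries and 0.294% to 0.299% in normal gravity libraries. Normal gravity replicate 1 stood apart: across 14509 genes its r with replicate 2, and likewise with replicate 3, was 0.936, whereas those replicates reached 0.985 with each other. The counts of calls, and the values that depend on it, are therefore also given without that library. Normal gravity is then represented by replicates 2 and 3 alone. The library left out was singled out from these same data, which narrows the spread. P-values without replicate 1 may therefore be too small, and a rise or fall given for that comparison holds for those libraries. The label hepatocytes was not borne out by the hepatocyte markers. Of 10 such genes 8 had no count in any library, among them Alb, Hnf4a and Cps1, and their summed level was 0.0901 to 0.146 CPM (counts per 1000000) in simulated microgravity and at most 0.183 CPM at normal gravity. Macrophage markers were abundant, with 9 of 10 at 1 CPM or more. Their summed level was 10026 to 11304 CPM in simulated microgravity, against 6144 to 9976 CPM at normal gravity (6144 to 6312 CPM without replicate 1). Normal gravity replicate 1 lay just below the simulated microgravity libraries, so the sum is well apart between the groups only without it. Of the 9 macrophage markers that were tested with all libraries none passed, against 1.52% of all genes. Adgre1 (-0.08), Cd14 (-0.25) and Fcgr1 (-0.14) had log2 fold changes below 0. Without replicate 1, 6 of 10 rose and none fell, 60% against 30.8% of all genes. Marco at 3.67 and Lyz2 at 2.07 rose most, while Adgre1 (0.02) and Cd14 (0.13) did not pass. The part of these markers in the results below was not tested. Summed stellate or fibroblast markers were at 15.3 to 18.8 CPM in simulated microgravity and 12.9 to 18.3 CPM at normal gravity (12.9 to 13.2 CPM without replicate 1, where the groups did not overlap). Of the 4 tested, Pdgfrb alone rose with all libraries, by 1.36 log2 units (adjusted p = 0.0396), 25% against 1.52% of all genes. Summed endothelial markers were at 45.5 to 58.3 CPM in simulated microgravity and 19.4 to 20 CPM at normal gravity, with Stab2 at 0. Nearly all of that sum was Vwf, which had 52.8, 42.4 and 57.1 CPM in simulated microgravity, against 15.3, 17.5 and 16.7 CPM at normal gravity. Vwf rose by 1.62 log2 units (adjusted p = 0.00886). Kdr, below 1 CPM in every library, had a log2 fold change of 2.28 and did not pass (adjusted p = 0.247). Pecam1 (-0.45) and Cdh5 (-1.04) had log2 fold changes below 0 with all libraries. Without replicate 1 that of Pecam1 was 0.11 and that of Cdh5 -0.69. The part of these endothelial markers in the results was not tested either. Cholangiocyte markers did not exceed 0.457 CPM in sum, with Sox9 and Cftr at 0. In bulk RNA, fewer cells of a type and less RNA per cell cannot be told apart.

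A small set of carriers dominated the family. On a scale of CPM per kilobase of gene length, 4 members had a mean of at least 100 over the 6 libraries and 21 of at least 10. Slc25a5, which encodes the ADP/ATP exchanger of dividing cells, stood at a mean of 410.8 CPM per kilobase in simulated microgravity and 403.9 at normal gravity. Next came Slc25a4, the ADP/ATP exchanger best known from heart and muscle, at 119.9 CPM per kilobase in simulated microgravity and 139.1 at normal gravity. Slc25a39, a glutathione importer, had 122.9 CPM per kilobase in simulated microgravity and 126.5 at normal gravity. Slc25a3, the phosphate carrier that feeds ATP synthase, had 119.8 CPM per kilobase in simulated microgravity and 124.8 at normal gravity. The ranges of Slc25a4, Slc25a39 and Slc25a3 over the 6 libraries overlapped, whereas Slc25a5 stood above them in every library. Together these 4 carriers made up 60.4% to 60.8% of the family's summed CPM per kilobase in simulated microgravity and 60.5% to 62.1% at normal gravity.

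**Figure D1:**
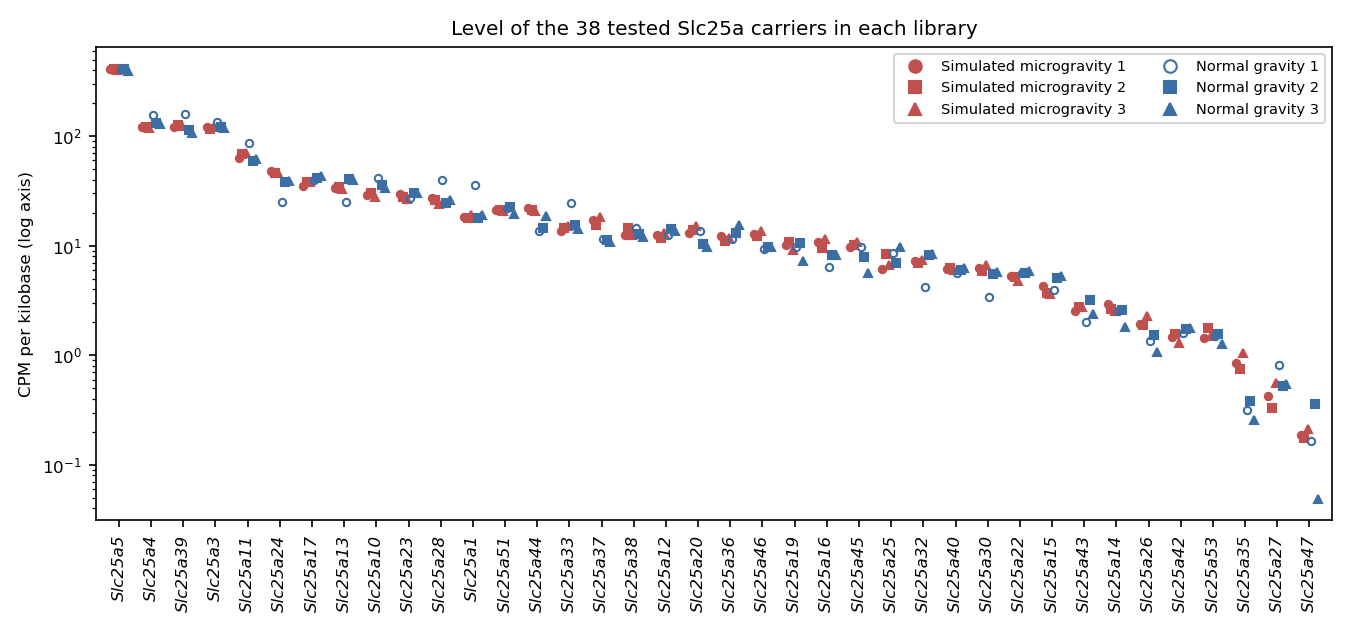
Level of each tested Slc25a carrier in each library, in CPM per kilobase of gene length on a log axis, ordered by the mean over the 6 libraries. Points are single libraries, and the open circle is normal gravity replicate 1; Slc25a5 stands highest, with a mean of 410.8 CPM per kilobase in simulated microgravity and 403.9 at normal gravity.

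Of the 47 members, 38 passed the filter on low counts and were tested, and 9 did not. The filter works on counts alone, and the highest untested member averaged 0.234 CPM. Slc25a21, Slc25a29, Slc25a31, Slc25a41, Slc25a48 and Slc25a54 had no count in any library, which allows at most 0.0154 CPM over the 194666094 counts of all libraries. They include the ADP/ATP exchanger of sperm (Slc25a31), the oxodicarboxylate carrier (Slc25a21) and a carrier of basic amino acids (Slc25a29). Slc25a34 had 2 counts in all, both in simulated microgravity replicate 3. Slc25a18, a glutamate carrier, had 8 counts in simulated microgravity replicate 1 and none elsewhere. It shares 32 exon bases with Atp6v1e1 on the opposite strand, which had 6873 to 8008 counts in simulated microgravity and 5023 to 8264 at normal gravity. Slc25a2, an ornithine carrier, had 7, 12 and 8 counts in simulated microgravity and 6, 3 and 9 counts at normal gravity.

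With all 6 libraries, no tested carrier passed an adjusted p of 0.05 in edgeR's quasi-likelihood test, where 1.52% of all 14509 tested genes passed. At an unadjusted p under 0.05, 6 carriers were higher and 1 lower in simulated microgravity, 18.4% of the 38, against 16% of all tested genes. By DESeq2 the carriers Slc25a35, Slc25a37 and Slc25a46 were higher, 7.89% of the tested members against 8.48% of all genes (4.92% higher and 3.56% lower), and limma-voom called no member, where it called 1.62% of all genes. The median log2 fold change of the tested carriers, simulated microgravity over normal gravity, was -0.02, and that of all tested genes was also -0.02. The groups did not overlap for 13 of the 38 carriers (8 higher and 5 lower in simulated microgravity), against 27.3% of all tested genes. Set against normal gravity replicates 2 and 3 alone, 23 of the 38 did not overlap, where 58.6% of all genes did not.

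Without normal gravity replicate 1, 9 carriers rose and 5 fell in simulated microgravity, where 30.8% of 14809 tested genes passed. The 14 members are 36.8% of the 38 tested, and their median log2 fold change over all 38 was -0.00, against 0.01 over all genes. Leaving out any other single library called no carrier, where 0.0202% (without simulated microgravity replicate 1) to 0.161% (without simulated microgravity replicate 2) of all genes passed, among them 0.0808% without simulated microgravity replicate 3. With no filter on low counts no carrier passed either, against 0.527% of all genes. With a trend of each library's counts on gene length removed from all 6 libraries, 1 carrier (Slc25a35) passed, against 4.92% of all genes. With the trend removed and replicate 1 left out, 10 carriers passed, 5 higher and 5 lower, against 31.3% of all genes. Both comparisons without replicate 1 shared 8 of these carriers: Slc25a20, Slc25a24, Slc25a35, Slc25a37 and Slc25a46 were higher, and Slc25a10, Slc25a13 and Slc25a15 lower. The family's share of calls lay near that of all genes in each of these comparisons.

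**Figure D2:**
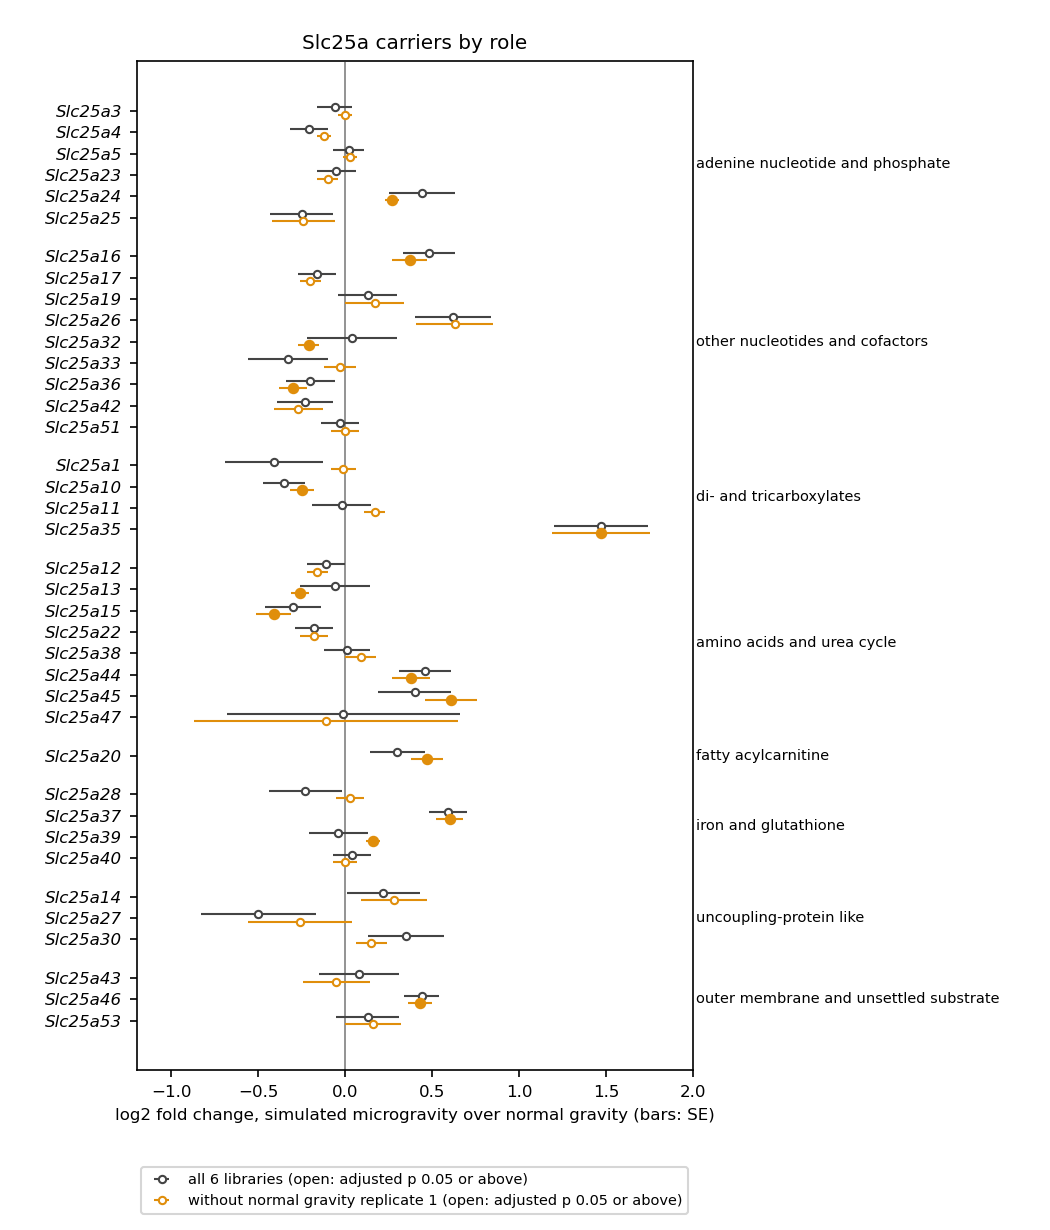
Log2 fold change of each tested carrier, simulated microgravity over normal gravity, grouped by role, with all 6 libraries (grey) and without normal gravity replicate 1 (orange); bars are standard errors. Filled points passed an adjusted p of 0.05: none did with all libraries and 14 did without replicate 1, with Slc25a35 at 1.47 in both.

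Iron enters the matrix through the mitoferrins, encoded by Slc25a37 (mitoferrin 1, best known from red cell precursors) and Slc25a28 (mitoferrin 2, of most other tissues). Slc25a37 lies on chromosome 14 from 69241848 to 69285112 on the minus strand of GRCm38. Its level was 100.6, 90.9 and 107.7 CPM in simulated microgravity, against 67.8, 66.8 and 64.7 CPM at normal gravity. All 3 simulated microgravity libraries stood above all 3 of normal gravity, and normal gravity replicate 1 did not stand apart for this gene. The log2 fold change was 0.59 (SE 0.11, adjusted p = 0.0675), which missed the threshold. Without replicate 1 Slc25a37 rose by 0.60 log2 units (SE 0.08, adjusted p = 0.00367). With a gene length trend removed from all 6 libraries its log2 fold change was 0.42 (adjusted p = 0.284), and with the trend removed and replicate 1 left out it was 0.67 (adjusted p = 0.00301).

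Slc25a28 did not show this pattern. It had 40.9, 39.8 and 36.5 CPM in simulated microgravity, against 60.9, 36.9 and 40 CPM at normal gravity, where replicate 1 alone was high. Over all libraries it differed by -0.23 on the log2 scale (SE 0.21, adjusted p = 0.66) and 0.03 (SE 0.08, adjusted p = 0.831) without replicate 1. The ratio of Slc25a28 to Slc25a37, each per gene length, was 1.59, 1.71 and 1.33 in simulated microgravity, against 3.51, 2.16 and 2.42 at normal gravity. Such a ratio within a library does not depend on how libraries are scaled. A trend of a library's counts on gene length does not cancel, however. Slc25a28 is 1514 bases long and Slc25a37 5927, and the ratio was not computed with that trend removed. The mean log2 ratio differed by -0.78 (-0.57 without replicate 1), and the groups did not overlap (two-sided exact permutation, p = 0.1, adjusted p = 0.2 over 8 pairs; 0.1 is the smallest p that 3 against 3 allows). Slc25a39 and Slc25a40 encode the glutathione carriers, which supply the matrix with its main thiol. Slc25a39 had 203.4, 210.9 and 206.9 CPM in simulated microgravity, against 268.5, 190.1 and 180.9 CPM at normal gravity. Its direction depends on replicate 1, with a log2 fold change of -0.04 (adjusted p = 0.941) with it and 0.16 (adjusted p = 0.0377) without it, and 0.03 (adjusted p = 0.587) with the length trend also removed. Slc25a40 stood at 27.3 ± 0.521 CPM in simulated microgravity and 26.6 ± 1.47 CPM at normal gravity (SD, n = 3 each).

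Among the 4 tested carriers grouped with those of di- and tricarboxylates, Slc25a35 differed most between the groups and was the lowest in level. Its substrate is not settled, and it is placed there by sequence likeness. The gene lies on chromosome 11 from 68968131 to 68974365 on the plus strand of GRCm38. It had 106, 82 and 124 counts in simulated microgravity, against 37, 47 and 30 counts at normal gravity, or 3.12, 2.71 and 3.82 CPM against 1.16, 1.4 and 0.929 CPM. Every simulated microgravity library exceeded every normal gravity library. The log2 fold change was 1.47 (SE 0.27, adjusted p = 0.0604) with all libraries, and 1.47 (SE 0.28, adjusted p = 0.0111) without replicate 1, where the gene rose. Removing the length trend from all 6 libraries gave 1.40 (adjusted p = 0.0415). It shares 1151 exon bases, 31.3% of its own, with Rangrf on the opposite strand. Rangrf had 492 to 539 counts in simulated microgravity and 683 to 787 counts at normal gravity, so the neighbour ran the other way, and without a stated strand setting reads of the shared part cannot be told apart.

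Slc25a10 encodes the dicarboxylate carrier, which exchanges malate or succinate for phosphate. It had 58.7, 61.5 and 55.8 CPM in simulated microgravity, against 83.5, 72.7 and 67.4 CPM at normal gravity, and the groups did not overlap. With all libraries its log2 fold change came to -0.35 (SE 0.12, adjusted p = 0.247). It fell by 0.25 log2 units (adjusted p = 0.0365) without replicate 1. Slc25a11, the oxoglutarate carrier of the malate-aspartate shuttle, had 109.2, 118.4 and 120.6 CPM in simulated microgravity, against 147.5, 101.3 and 104.9 CPM at normal gravity, where replicate 1 was high and the other libraries were below all 3 of simulated microgravity. Its log2 fold change was -0.02 (adjusted p = 0.971), and 0.17 (adjusted p = 0.0744) without replicate 1. Slc25a11 shares 8.9% of its exon bases with Rnf167 on the opposite strand. Rnf167 had 955, 783 and 981 counts in simulated microgravity and 1054, 587 and 608 counts at normal gravity. Without a stated strand setting, reads of the shared part cannot be told apart. The ratio of Slc25a10 to Slc25a11 was 0.455, 0.439 and 0.391 in simulated microgravity, against 0.479, 0.607 and 0.544 at normal gravity, a difference of -0.34 in mean log2 ratio (-0.43 without replicate 1) with no overlap (two-sided exact permutation, p = 0.1, adjusted p = 0.2 over 8 pairs). Slc25a1, the citrate carrier that supplies carbon for fatty acid and sterol synthesis, had 30.3, 30.1 and 31.9 CPM in simulated microgravity and 60.6, 29.8 and 32.2 CPM at normal gravity. Only normal gravity replicate 1 differed, and the log2 fold change was -0.41 (adjusted p = 0.555) with it and -0.01 (adjusted p = 0.943) without it.

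The acylcarnitine carrier Slc25a20 brings long-chain fatty acids bound to carnitine into the matrix. Its level was 35.8, 38 and 41.8 CPM in simulated microgravity, against 37.8, 28.7 and 27.1 CPM at normal gravity. Replicate 1 lay within the range of simulated microgravity, and the other normal gravity libraries lay below it. Over all libraries the log2 fold change came to 0.30 (SE 0.16, adjusted p = 0.437). Without replicate 1 it rose by 0.47 log2 units (SE 0.09, adjusted p = 0.0108), and by 0.37 (adjusted p = 0.0203) with the length trend also removed.

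Of the adenine nucleotide and phosphate carriers, 6 of 9 were tested, and without replicate 1 Slc25a24 alone passed, 16.7% against 30.8% of all genes. With the length trend also removed, Slc25a4 passed as well. Slc25a24 encodes a calcium-regulated exchanger of ATP-magnesium for phosphate. It had 163.4, 157.2 and 157.4 CPM in simulated microgravity, against 85.6, 132.2 and 133.5 CPM at normal gravity, and all 3 simulated microgravity libraries were above all 3 of normal gravity. With all libraries the log2 difference was 0.44 (SE 0.19, adjusted p = 0.317), and it rose by 0.27 (SE 0.04, adjusted p = 0.00711) without replicate 1. Slc25a25, a relative with the same exchange, had 23.7, 31.9 and 25.4 CPM in simulated microgravity and 32.5, 26.6 and 37.3 CPM at normal gravity, with overlapping groups and a log2 fold change of -0.25 (adjusted p = 0.574), which ran from -0.39 without simulated microgravity replicate 2 to -0.13 without normal gravity replicate 3. The third relative, Slc25a23, stood at 94.6 ± 4.36 CPM in simulated microgravity and 98 ± 6.3 CPM at normal gravity (SD, n = 3 each). The ratio of Slc25a23 to Slc25a24 was 0.618, 0.613 and 0.585 in simulated microgravity, against 1.08, 0.784 and 0.776 at normal gravity. The mean log2 ratio differed by -0.52 (-0.37 without replicate 1), without overlap (two-sided exact permutation, p = 0.1, adjusted p = 0.2 over 8 pairs).

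The most abundant carriers of this group differed little. Slc25a5 had 510.8, 514.3 and 503.2 CPM in simulated microgravity and 503.7, 509.8 and 489.1 CPM at normal gravity, a difference of 0.02 on the log2 scale (SE 0.09, adjusted p = 0.932). Slc25a3 had 491, 467.4 and 492.8 CPM in simulated microgravity and 543, 491.4 and 477.5 CPM at normal gravity, a difference of -0.06 on the log2 scale (SE 0.10, adjusted p = 0.837). Neither direction held under every setting tried, and neither gene passed the threshold. Slc25a4 had 231.1, 231.9 and 229.7 CPM in simulated microgravity, against 301, 251.9 and 250.4 CPM at normal gravity. Here all 3 simulated microgravity libraries lay below all 3 of normal gravity, differing by -0.21 on the log2 scale (SE 0.11, adjusted p = 0.43), and by -0.12 (SE 0.04, adjusted p = 0.0512) without replicate 1. With the length trend also removed it was -0.25 (adjusted p = 0.00453). The Slc25a4 to Slc25a5 ratio was 0.291, 0.29 and 0.294 in simulated microgravity, against 0.385, 0.318 and 0.33 at normal gravity. The mean log2 ratio differed by -0.23 (-0.15 without replicate 1), without overlap (two-sided exact permutation, p = 0.1, adjusted p = 0.2 over 8 pairs). The pseudogene row Slc25a5-ps held 1 count in simulated microgravity and 4 counts at normal gravity, so few reads were assigned to that copy.

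**Figure D3:**
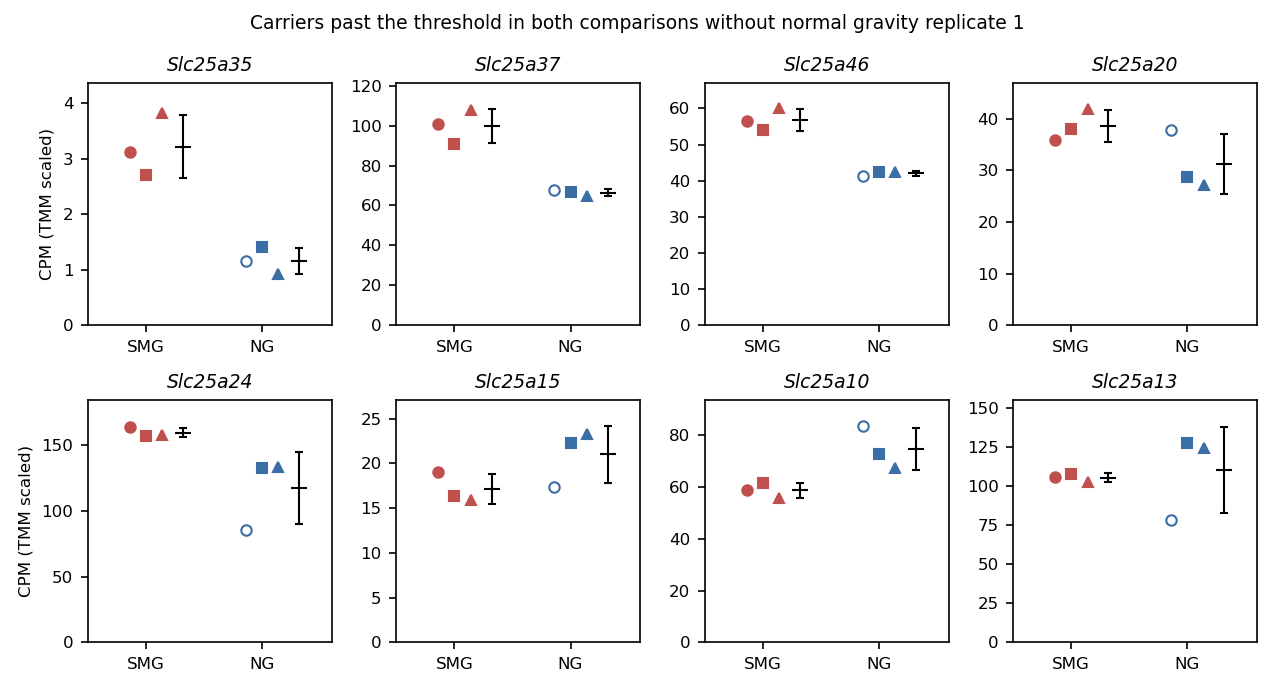
Level in CPM (scaled by TMM) of the 8 carriers that passed in both comparisons without normal gravity replicate 1, in simulated microgravity (SMG, left) and at normal gravity (NG, right). Points are libraries, the open circle is normal gravity replicate 1, and the bar is the mean with the SD of 3; Slc25a35, Slc25a37, Slc25a46, Slc25a24 and Slc25a10 show no overlap of the groups.

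Carriers of amino acids and the urea cycle included 8 tested members of 12, of which 2 rose and 2 fell without replicate 1, 50% against 30.8% of all genes. Slc25a15 encodes the ornithine-citrulline exchanger of the urea cycle. It had 19, 16.4 and 15.9 CPM in simulated microgravity, against 17.4, 22.3 and 23.3 CPM at normal gravity, where replicate 1 lay among the simulated microgravity libraries. The log2 fold change was -0.30 (SE 0.16, adjusted p = 0.445), and without replicate 1 it fell by 0.41 log2 units (SE 0.10, adjusted p = 0.0298). Slc25a13 and Slc25a12 encode aspartate-glutamate exchangers, the first being the main form of liver. Slc25a13 had 105.9, 107.9 and 102.3 CPM in simulated microgravity, against 78.2, 127.5 and 124.6 CPM at normal gravity. Replicate 1 lay below all simulated microgravity libraries and the other normal gravity libraries above them, and the log2 fold change was -0.06 (adjusted p = 0.922) with it and -0.26 (SE 0.05, adjusted p = 0.0116) without it. Slc25a12 had 80.1, 74.6 and 83 CPM in simulated microgravity and 79.5, 90.3 and 86.7 CPM at normal gravity, with a log2 fold change of -0.11 (adjusted p = 0.702), and of -0.16 (adjusted p = 0.115) without replicate 1. Per gene length Slc25a12 was at 0.34 to 0.399 of Slc25a13 in simulated microgravity and at 0.342 to 0.5 at normal gravity. Slc25a45, which is grouped with these carriers by sequence, had 25.5, 26.2 and 28.5 CPM in simulated microgravity and 25.5, 20.5 and 14.6 CPM at normal gravity. It rose by 0.61 log2 units (SE 0.15, adjusted p = 0.0294) without replicate 1, against a log2 fold change of 0.40 (adjusted p = 0.434) with it. With the length trend also removed it no longer passed (0.50, adjusted p = 0.0528), and without normal gravity replicate 3 the value was 0.21. Slc25a44, which encodes a carrier of branched-chain amino acids described in brown fat, was at 76.8 ± 2.44 CPM in simulated microgravity and 55.7 ± 9.33 CPM at normal gravity (SD, n = 3 each), without overlap; its log2 fold change was 0.46 (adjusted p = 0.196), and 0.38 (adjusted p = 0.0418) without replicate 1. That call too was lost with the length trend removed (adjusted p = 0.0534). The glutamate carrier gene Slc25a22 and the glycine carrier gene Slc25a38 did not pass in any of the comparisons named. Slc25a47, a liver carrier in the mouse, was the lowest of all tested members at 0.361 ± 0.0356 CPM in simulated microgravity and 0.363 ± 0.298 CPM at normal gravity (SD, n = 3 each).

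All 9 carriers of other nucleotides and cofactors were tested, and without replicate 1 Slc25a16 rose while Slc25a32 and Slc25a36 fell, 33.3% against 30.8% of all genes. Slc25a16, whose product is tied to the supply of coenzyme A, averaged 33.5 ± 3.32 CPM in simulated microgravity and 24.1 ± 3.4 CPM at normal gravity (SD, n = 3 each). Its log2 fold change was 0.48 (adjusted p = 0.198), and 0.37 (adjusted p = 0.035) without replicate 1. Slc25a32, linked to folate and flavin transport, was at 42.6, 40.8 and 43.7 CPM in simulated microgravity and 25, 48.6 and 49.6 CPM at normal gravity. The low value of replicate 1 sets its sign: the log2 fold change was 0.04 (adjusted p = 0.962) with it and -0.21 (adjusted p = 0.0404) without it. Slc25a36, a pyrimidine nucleotide carrier, had a log2 fold change of -0.20 (adjusted p = 0.555), and of -0.30 (adjusted p = 0.0402) without replicate 1. None of these 3 passed once the length trend was removed as well (adjusted p of 0.0631 for Slc25a16, 0.128 for Slc25a32 and 0.0541 for Slc25a36). The peroxisomal cofactor carrier gene Slc25a17 passed only in that comparison, at -0.32 (adjusted p = 0.00999). The NAD carrier gene Slc25a51 had 94.4, 93.6 and 91.8 CPM in simulated microgravity and 97.4, 100.8 and 86.5 CPM at normal gravity, a difference of -0.03 on the log2 scale (SE 0.11, adjusted p = 0.945).

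Slc25a46 differs from the rest in that its product sits in the outer membrane and takes part in mitochondrial fission and fusion. Its level was 56.5, 53.9 and 60 CPM in simulated microgravity, against 41.2, 42.3 and 42.5 CPM at normal gravity, with no overlap and with replicate 1 close to its group. The log2 fold change was 0.44 (SE 0.10, adjusted p = 0.106) with all libraries, and without replicate 1 it rose by 0.43 (SE 0.07, adjusted p = 0.00571). It shares 7.1% of its exon bases with B930094E09Rik on the opposite strand, which had 8 to 30 counts in simulated microgravity and 0 to 10 counts at normal gravity. The other carriers of that group, Slc25a43 and Slc25a53, and the 3 relatives of the uncoupling proteins, Slc25a14, Slc25a27 and Slc25a30, did not pass with or without replicate 1.

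**Figure D4:**
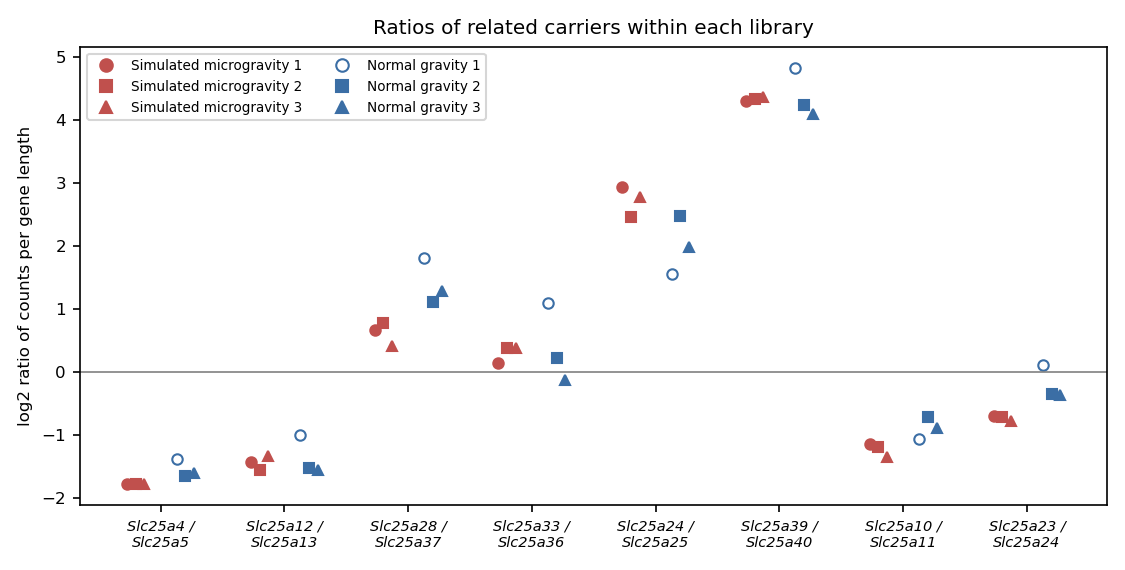
Log2 ratio of related carriers within each library, counts divided by gene length, for the 8 pairs with at least 10 counts of both genes in every library. Points are libraries, simulated microgravity left of normal gravity in each pair, with normal gravity replicate 1 as an open circle; the ratio Slc25a28/Slc25a37 averages 0.62 in simulated microgravity and 1.40 at normal gravity.

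The sequences before the start sites of 4 of the carriers that passed in both comparisons without replicate 1 are shown because they hold members of either direction. Slc25a24 and Slc25a20 were higher and Slc25a10 and Slc25a13 lower in simulated microgravity. Each window runs from 250 bases before to 50 bases after the gene's start, taken from RefSeq on GRCm38.p6, and is written 5′ to 3′ on the gene's strand. Capitals mark matches on either strand to the GC box GGGCGG, the CCAAT box CCAAT and the E-box CACGTG. Slc25a24 is at chr3:109122899-109123198 (plus strand), Slc25a20 at chr9:108661886-108662185 (plus), Slc25a10 at chr11:120491587-120491886 (plus) and Slc25a13 at chr6:6217124-6217423 (minus).
Slc25a24: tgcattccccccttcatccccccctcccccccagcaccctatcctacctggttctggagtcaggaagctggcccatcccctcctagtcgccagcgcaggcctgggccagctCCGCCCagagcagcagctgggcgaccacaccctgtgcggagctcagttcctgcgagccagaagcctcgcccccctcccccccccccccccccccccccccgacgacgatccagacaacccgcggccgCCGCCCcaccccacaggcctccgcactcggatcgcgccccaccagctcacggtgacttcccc
Slc25a20: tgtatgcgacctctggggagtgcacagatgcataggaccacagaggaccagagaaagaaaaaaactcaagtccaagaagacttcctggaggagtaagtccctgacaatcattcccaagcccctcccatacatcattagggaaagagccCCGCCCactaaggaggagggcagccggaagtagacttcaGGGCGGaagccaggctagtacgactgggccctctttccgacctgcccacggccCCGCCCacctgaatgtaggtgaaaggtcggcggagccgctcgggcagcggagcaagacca
Slc25a10: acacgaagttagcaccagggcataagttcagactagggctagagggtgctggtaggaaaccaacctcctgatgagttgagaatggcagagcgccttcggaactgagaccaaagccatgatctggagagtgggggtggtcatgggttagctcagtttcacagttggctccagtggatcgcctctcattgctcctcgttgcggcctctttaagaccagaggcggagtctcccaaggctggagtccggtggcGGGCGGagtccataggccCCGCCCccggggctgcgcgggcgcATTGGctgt
Slc25a13: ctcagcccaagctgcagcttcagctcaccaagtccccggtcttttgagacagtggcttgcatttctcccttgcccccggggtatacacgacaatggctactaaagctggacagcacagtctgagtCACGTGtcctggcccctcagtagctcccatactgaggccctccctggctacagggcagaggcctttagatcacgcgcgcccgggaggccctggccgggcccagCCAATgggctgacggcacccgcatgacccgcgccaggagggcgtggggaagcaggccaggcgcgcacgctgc
The window of Slc25a24 holds 2 GC boxes and that of Slc25a20 holds 3, with no other match. That of Slc25a10 holds 2 GC boxes and 1 CCAAT box, and that of Slc25a13 holds 1 CCAAT box and 1 E-box. The window of Slc25a15, which was lower, holds 3 GC boxes and no other match. Whether matches go with direction was not tested. No match overlaps another. Their share of G and C is 72.3% in Slc25a24, 58% in Slc25a20, 59.7% in Slc25a10 and 65% in Slc25a13. Of the 47 members, 36 had such a window. Slc25a35, Slc25a37 and Slc25a46, which were higher in both comparisons without replicate 1, had none. A GC box was in 30 of these 36 windows (83.3%), against 35.9% of all 27025 windows. All windows were taken whether or not their gene was tested, and they were not matched to the members in share of G and C. A CCAAT box was in 47.2% of the members' windows and 37.9% of all, and an E-box in 16.7% of the members' windows and 7.24% of all. The motif of nuclear respiratory factor 1 was in 2 of the 36 (5.56%), those of Slc25a3 and Slc25a31, against 4.78% of all windows. A TATA box, TATAAA, was in that of Slc25a18 alone, against 14.2% of all windows. A match is a run of letters in this window, not a bound site.

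Other routes across the mitochondrial membranes were read from 8 lists of 39 genes, of which 37 were tested. With all libraries 1 of the 37 (2.7%) passed, against 1.52% of all genes: Sfxn5, a sideroflexin, fell. It had 20.8, 20.6 and 18.8 CPM in simulated microgravity and 37, 31.9 and 31.8 CPM at normal gravity, without overlap (log2 fold change -0.74, SE 0.12, adjusted p = 0.047). At an unadjusted p under 0.05, 2 of the 37 were higher and 5 lower, 18.9% against 16% of all tested genes. Without replicate 1, 5 rose and 7 fell, 32.4% against 30.8% of all genes. With the length trend also removed 3 were higher and 11 lower, 37.8% against 31.3% of all genes. The values that follow are without replicate 1 and with the trend kept, unless stated otherwise. Sideroflexins, of which Sfxn1 carries serine, held 4 calls among 5 tested, 3 lower and 1 higher, 80% against 30.8% of all genes. Sfxn1 fell by 0.64 log2 units (adjusted p = 0.00129) and Sfxn5 fell by 0.67 (adjusted p = 0.00245), while Sfxn3 rose by 0.67 (adjusted p = 0.000686). Of the calcium exchange genes, Slc8b1, the sodium-calcium exchanger of the inner membrane, rose by 0.95 log2 units (adjusted p = 0.0016). Mcub, a subunit that restrains the calcium uniporter, rose by 0.65 (adjusted p = 0.0024), and Micu3, a uniporter regulator, fell by 0.38 (adjusted p = 0.0373), against a log2 fold change of 0.12 (adjusted p = 0.961) with replicate 1. Tomm70a, the outer membrane receptor that takes up carrier precursors, fell by 0.48 log2 units (adjusted p = 0.00131), and Agk, a subunit of the inner membrane carrier translocase, fell by 0.43 (adjusted p = 0.0169). Of the 10 carrier import genes, 1 rose and 2 fell without replicate 1, 30% against 30.8% of all genes. The gene that rose was Timm8b, by 0.29 log2 units (adjusted p = 0.0331). With the length trend also removed Timm8b did not pass (0.19, adjusted p = 0.0827). In that comparison 0 carrier import genes were higher and 3 lower, 30% against 31.3% of all genes. Abcb8, an ABC transporter of the inner membrane, rose by 0.21 log2 units (adjusted p = 0.037), a call lost with the length trend also removed (0.14, adjusted p = 0.117). Neither gene of the pyruvate carrier, none of the 3 voltage-dependent anion channels and none of the 3 tested relatives with other symbols passed with or without replicate 1. With the length trend removed and replicate 1 left out, Vdac1 (-0.29, adjusted p = 0.0168) and Vdac2 (-0.37, adjusted p = 0.0202) passed as lower. Among the relatives, the uncoupling protein gene Ucp2 had 148.6, 130.7 and 152.3 CPM in simulated microgravity and 265.9, 142.4 and 141.4 CPM at normal gravity, a log2 fold change of -0.35 (adjusted p = 0.6) with replicate 1 and 0.02 (adjusted p = 0.843) without it.

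Normal gravity replicate 1 differed from replicates 2 and 3 in a way that ran with gene length over all tested genes. Among the carriers this was less clear, as the middle and the longest members hardly differed. Members of up to 2000 bases had a median log2 ratio of replicate 1 to the mean of the other normal gravity libraries of 0.24 (9 of 12 above 0), those of over 2000 and up to 4000 bases one of -0.00 (7 of 15) and those over 4000 bases one of -0.04 (4 of 11). Over all tested genes the medians were 0.54, 0.09 and -0.51. The spread within members was wide: the ratio was 0.97 for Slc25a1 and -0.97 for Slc25a32, against 0.04 for Slc25a37 and -0.04 for Slc25a46.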

How the data were processed

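The values the authors deposited are whole-number read counts for each gene, with no normalization visible in them. The table also lists gene coordinates and a gene length in bases. The submitters' processing notes name fastp 2.0 and HISAT2 2.1.0. For counting, strand setting, build and annotation, the tool or version is not given in the sources used here. Coordinates equalled those of GENCODE M21 (GRCm38) for 97.1% of the genes found in both, 42 of the 47 carriers among them. Of 53801 lines 1 held no gene and was left out, and 0 columns of per-sample values went unused.

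In R 4.3.3, edgeR 4.0.16 filtered the whole table (filterByExpr), scaled it by TMM and ran its two-sided quasi-likelihood test. P-values were adjusted by Benjamini-Hochberg across every tested gene, with 0.05 as the threshold. Each SE is the log2 fold change over the square root of F. CPM are scaled by TMM, except in summed marker lists, which are scaled to all counts. The limit for a count of 0 is 3 counts of the total and covers counting error only. Alternatives used DESeq2 1.42.0, limma-voom (limma 3.58.1), other scalings and filters, a replicate block, removal of a spline on gene length, and leaving out each library. The procedure was tested on simulated data. These held no deviating library and no trend on gene length, so the test does not bear on either.

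The members, lists, pairs and alternatives were chosen with earlier results of these data known. Values per library are given for carriers past the threshold, for those past it without normal gravity replicate 1 with a log2 fold change of at least 0.5 in size, for the 6 highest levels per kilobase, and for 15 carriers listed by name for their roles. Slc25a16, Slc25a17, Slc25a32, Slc25a36, Slc25a44, Slc25a46, Slc25a47 and the other carriers with values of their own were chosen after their values were seen, as were the 4 promoters and the comparison that leaves out replicate 1 and removes the length trend together. The result of 1 gene outside the family is not reported here.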

Additional observations from a re-analysis of the deposited data

How the results depend on the processing

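With all 6 libraries 0 of 38 tested carriers passed in edgeR. None passed with size factors of the DESeq2 type, with scaling by library size, unfiltered (41 tested), in limma-voom or with the replicate block. DESeq2 called 3, removing the length trend called 1, and doing so without normal gravity replicate 1 called 10. Leaving out 1 library each called 0 to 14. Of the 18 carriers named by rule, 2 passed in DESeq2, 1 with the length trend removed, 8 with the trend removed and replicate 1 left out, and 0 to 9 when 1 library was left out. Among all genes, 221 passed (168 higher and 53 lower), against 125 with no filter, 1230 in DESeq2 (714 higher and 516 lower), 714 with the length trend removed (379 higher and 335 lower), 0 with the replicate block, 4635 with the trend removed and replicate 1 left out, and 3 to 4559 with 1 library left out. Of the comparisons that leave out 1 library, the one without normal gravity replicate 1 gave the highest of these counts. Of the transport genes outside the family 1 passed, against 0 with no filter, 4 in DESeq2, 0 with the block, 2 with the length trend removed, 14 with it removed and replicate 1 left out, and 0 to 12 with 1 library left out.

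The median log2 fold change of the carriers was -0.04 to 0.03 with 1 library left out and -0.06 with the trend removed and replicate 1 left out, around -0.02 in the main comparison. Signs changed for Slc25a5 (-0.01 with library size alone, -0.08 with the trend removed and replicate 1 left out), and, with the trend removed and replicate 1 left out, for Slc25a39 (0.03), Slc25a11 (0.05) and Slc25a51 (0.00). With 1 library left out, values ran from -0.15 to 0.16 for Slc25a39, -0.10 to 0.00 for Slc25a3, -0.12 to 0.17 for Slc25a11, -0.26 to 0.05 for Slc25a13, -0.37 to 0.03 for Slc25a28 and -0.09 to 0.02 for Slc25a51; the cause was not tested. Slc25a37 ran from 0.53 to 0.65 and Slc25a35 from 1.33 to 1.62. Log2 ratio differences of Slc25a12/Slc25a13 ran from -0.18 to 0.10, Slc25a33/Slc25a36 from -0.35 to 0.26 and Slc25a39/Slc25a40 from -0.20 to 0.16, and those of the other 5 pairs kept their sign. The pairs Slc25a18/Slc25a22 and Slc25a15/Slc25a2 had too few counts.

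Replicates of the same number did not deviate together (r of -0.07, 0.02 and -0.09 for numbers 1 to 3). Not every library correlated best with its own number. Over all pairs across the groups r ran from -0.09 to 0.09, and normal gravity replicate 1 stood apart. These values therefore do not settle whether the numbers pair the libraries. The block took the calls over all genes to 0, and 3 libraries a group limit the precision.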
